A study of Mus musculus with 50 samples.

Results

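Mouse embryonic stem cells that lack the 3 YTHDF proteins were compared with WT cells 4 h after transcription was blocked with actinomycin D. The cells were of the KH2 line, a stem cell line of C57BL/6 x 129/Sv background, and no further property of the clones was given in the labels. Triple_KO cells were labelled Ythdf1-/-Ythdf2-/-Ythdf3-/-, and WT cells carried none of these deletions. All cells grew in serum with LIF, a cytokine that maintains the stem cell state, were plated on gelatin and received 5 µM actinomycin D, and poly(A) RNA was sequenced from its 3′ end at 0, 4 and 8 h. The comparison rests on the 4 libraries of Triple_KO and WT at 4 h out of 50 in all, with replicates A and B of each genotype in 1 library each. The 8 libraries of these genotypes at 0 h, which are 2 duplicates of each replicate, gave the starting levels. The 6 libraries of the single knockouts Ythdf1_KO, Ythdf2_KO and Ythdf3_KO at 4 h shared the estimate of spread.

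YTHDF proteins bind N6-methyladenosine (m6A), a methyl mark on adenosines of mRNA that is written by a complex around METTL3 and METTL14. Bound transcripts are known to be directed to deadenylation and decay, and the 3 proteins resemble each other closely. In mouse embryonic stem cells, many transcripts of pluripotency and developmental regulators carry the mark. Actinomycin D blocks transcription, so that the amount of a transcript at a later time reflects what was present at the start and what has since been lost. Levels scaled to a library total, as used here, also depend on what other transcripts lose and can rise.

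Levels are given as FPM, read counts scaled to a fixed library total, with no correction for length. Differences are given on the log2(FPM + 1) scale, which understates those of low genes, followed by the standard error (SE). A gene was called at a limma adjusted p under 0.05, and n was 2 replicates per genotype and time. The libraries of 4 h held 1362769 and 1793690 reads in Triple_KO and 1162130 and 1253810 reads in WT, so that 1 read was worth less than 1 FPM. Listed genes held 45.1% ± 0.544 of the reads in Triple_KO and 40.3% ± 0.771 in WT at 4 h (SD, n = 2 each). At 0 h the shares were 44.3% in Triple_KO and 43.3% in WT. The labels do not say that replicates A and B were separate cultures, and p-values measure the spread between them, which may be technical. No spike-in was named, and in these bulk samples fewer cells of a type and less RNA per cell cannot be told apart.

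The 3 deleted genes still gave reads at 4 h. Reads from the 3′ end do not test an edit elsewhere in a gene, and where the genes were edited is not stated in the labels, so these values do not check them. Ythdf1 (chromosome 2, 180904377 to 180920936 in GRCm38.p6) stood at 38.9 and 29.0 FPM in Triple_KO, against 13.8 and 14.4 FPM in WT. Its level was 1.20 ± 0.29 higher on the log2 scale (adjusted p = 0.00137). Ythdf2 (chromosome 4, 132184916 to 132212256) stood at 66.0 and 67.5 FPM in Triple_KO, against 14.6 and 14.4 FPM in WT, a log2 difference of 2.13 ± 0.29 (adjusted p = 3.14e-09). Both transcripts were thus higher in both Triple_KO libraries than in either WT library. Ythdf3, listed only through a noncoding transcript, had 23.5 and 25.6 FPM in Triple_KO and 14.6 and 13.6 FPM in WT, and its log2 difference of 0.76 ± 0.32 did not pass the test (adjusted p = 0.0883). The call of Ythdf1 ended without Triple_KO replicate A, with adjusted p between 0.00393 and 0.0803 over the 4 fits that each left out 1 replicate. In the single knockouts at 4 h, Ythdf1 had 25.6 and 41.4 FPM in Ythdf1_KO and Ythdf2 had 18.5 and 19.9 FPM in Ythdf2_KO.

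Most transcripts that differed at 4 h were more abundant in Triple_KO. Of 8002 genes tested, 1312 were called higher in Triple_KO (16.4%) and 162 lower (2.02%), and the median log2 difference over all genes was 0.304. This shift in the median depends on the scaling. Under TMM, which scales libraries by a trimmed mean of gene ratios, the median was 0.007 and the calls were 588 higher and 750 lower. With every library scaled to the same median level, they were 498 higher and 896 lower. The direction of the majority is therefore a statement relative to the library total, and splits under other scalings are given below. Without Triple_KO replicate A, 720 genes were called, without replicate B 791, and without WT replicates A and B 995 and 1090.

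**Figure D1:**
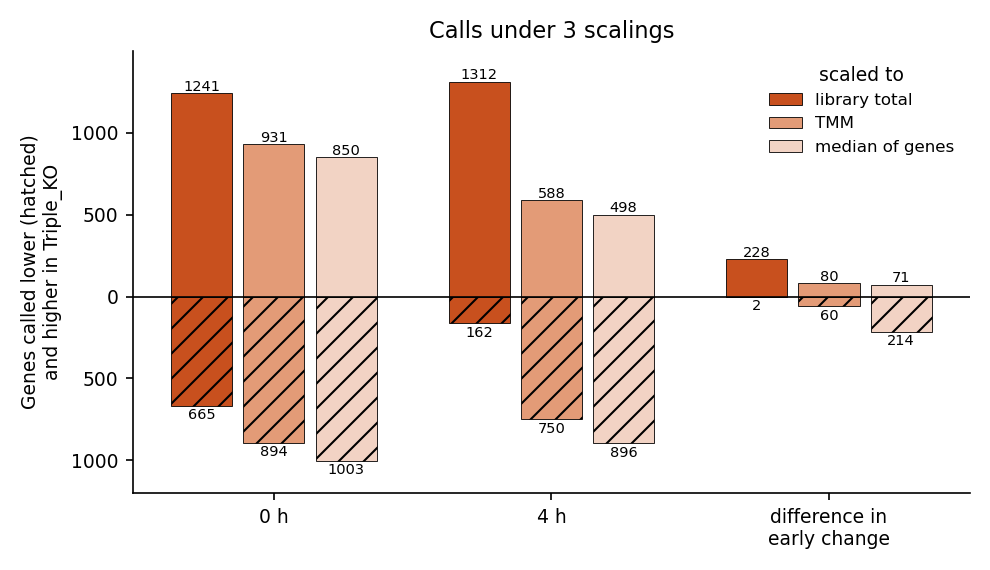
Number of genes called higher (upward bars) and lower (downward, hatched bars) in Triple_KO than in WT at 0 h, at 4 h and for the difference in early change, for values scaled to the library total, by TMM or to a common median. At 4 h the calls were 1312 higher and 162 lower with the library total, 588 and 750 with TMM, and 498 and 896 with the common median.

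The transcripts that stood highest over WT at 4 h encode unrelated enzymes and regulators, and most of them had few reads left in WT at that time. The 12 largest rises, by 2.78 to 3.68 on the log2 scale with adjusted p of at most 0.000601, were Riox1, Bhmt, Zfpm1, Dppa3, Tmem37, Rpp25l, Dyrk3, Mtmr12, Rabif, Commd5, Dpysl3 and Mrm2. Riox1 encodes an oxygenase that hydroxylates a ribosomal protein and lies on chromosome 12 at 83950608 to 83952953. It had 26.4 and 19 FPM in Triple_KO, against 0.860 and 0.798 FPM in WT, or 70 reads against 2. The ratio of these counts per library total was 26.8, with an exact 95% interval of 7.14 to 226 that covers counting error only. Zfpm1, which encodes a cofactor of GATA factors, had 33 reads in Triple_KO and 0 in WT, which makes it at least 8.42-fold higher against a floor of 3 reads over both WT libraries. Bhmt, an enzyme that passes methyl groups from betaine to homocysteine, had 66 reads in Triple_KO and 3 in WT, a ratio of 16.8 (5.52 to 83.7). Mtmr12 and Rabif had 39 and 38 reads in Triple_KO and 1 read each in WT. These 5 genes show that the size of the largest folds rests on few WT reads.

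Others of the 12 had more reads. Rpp25l, a relative of a protein subunit of RNase P (chromosome 4, 41712033 to 41713517), had 79.3 and 65.2 FPM in Triple_KO, against 4.30 and 7.18 FPM in WT. Its log2 difference was 3.47 ± 0.37 (adjusted p = 3.89e-13). Dyrk3, a kinase known for dissolving stress granules, had 36.7 and 34.6 FPM in Triple_KO, against 1.72 and 3.19 FPM in WT (3.44 ± 0.45, adjusted p = 1.53e-09). Commd5, a COMM domain protein, had 67.5 and 83.1 FPM in Triple_KO, against 7.74 and 8.77 FPM in WT (3.04 ± 0.35, adjusted p = 1.40e-11). Both Triple_KO libraries lay above both WT libraries for all 12, as the rule for naming them required. All 12 kept the call under TMM and median scaling, and 5 of them were called by DESeq2 on recovered reads. The 9 that could be tested without each of the 4 replicates kept it in all 4 fits, and Bhmt, Zfpm1 and Mrm2 could be tested and kept it only without a WT replicate. Of the 12, 4 (Bhmt, Zfpm1, Mrm2 and Rabif) passed the filter on low values only through the Triple_KO libraries, as did 99 of the 1312 genes called higher and 541 of all 8002, so that for these genes the filter itself favoured higher values in Triple_KO.

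The 12 largest falls were smaller, from −2.30 to −1.53 with adjusted p of at most 0.00144, and they too had a mixed set of functions. They were Myl4, Septin1, Klk10, Mir5136, Snhg3, Islr2, Rpph1, Atp2a3, Dnajc3, Xaf1, Pla2g1b and Sult6b1. Myl4, a myosin light chain of atrial muscle, had 2.94 and 3.90 FPM in Triple_KO, against 23.2 and 18.3 FPM in WT (−2.30 ± 0.43, adjusted p = 1.73e-05). Septin1, a filament-forming GTPase (chromosome 7, 127212709 to 127232985), had 11.7 and 9.48 FPM in Triple_KO, against 52.5 and 51.0 FPM in WT (−2.19 ± 0.24, adjusted p = 8.66e-13). Snhg3, a host of a small nucleolar RNA, had 13.9 and 15.6 FPM in Triple_KO, against 55.1 and 58.2 FPM in WT (−1.87 ± 0.25, adjusted p = 1.28e-09). All 12 kept the call under TMM and median scaling. Among the 12, 3 lost it without 1 replicate: Klk10 without Triple_KO replicate A (adjusted p 0.00187 to 0.0599 over the 4 such fits), Xaf1 without WT replicate A (0.00131 to 0.0781) and Sult6b1 without Triple_KO replicate B or WT replicate B (2.63e-06 to 0.342). Mir5136 is the row of a microRNA gene, whose poly(A) reads are not those of the mature RNA.

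**Figure D2:**
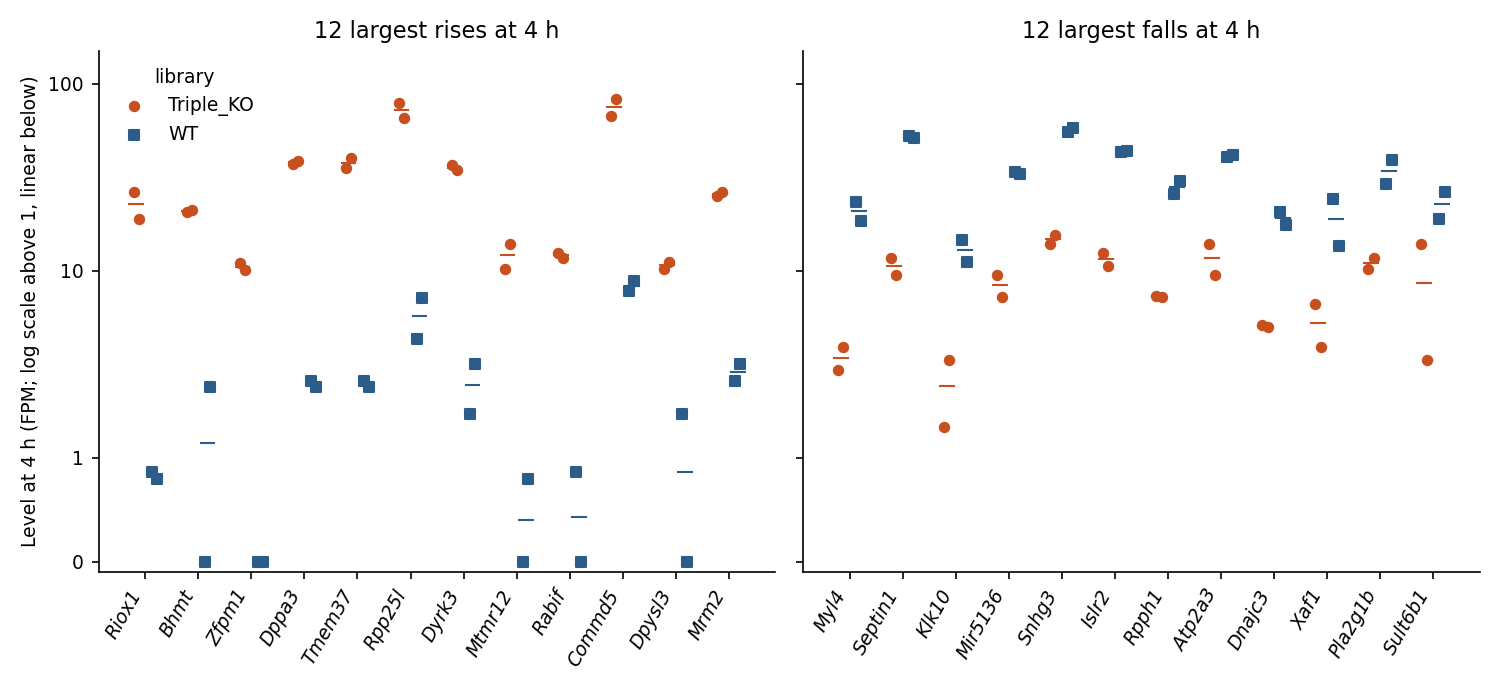
Level at 4 h in each library, in FPM on an axis that is logarithmic above 1 and linear below, for the 12 largest rises (left) and the 12 largest falls (right); circles are Triple_KO, squares WT and short lines the means. In the left panel WT libraries of Bhmt, Zfpm1, Mtmr12, Rabif and Dpysl3 reach 0, while the lowest Triple_KO library stands at 10.0 FPM (Zfpm1).

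The starting levels differed between the genotypes as well. At 0 h, 1241 of 8697 genes were higher in Triple_KO (14.3%) and 665 lower (7.65%), with a median of 0.071. Under TMM the split was 931 higher and 894 lower, and under median scaling 850 and 1003. Of the 1161 genes called higher at 0 h and tested at both times, 704 (60.6%) were also called higher at 4 h, which is 54.2% of those called higher at 4 h. Of the 622 called lower at 0 h, 129 (20.7%) were called lower at 4 h, which is 80.1% of those called lower at 4 h. Falls at 4 h were thus largely present at the start, whereas 586 of the 6012 genes with no call at 0 h (9.75%) were higher at 4 h and 32 (0.532%) were lower. Among these 6012 genes the median difference was 0.04 at 0 h and 0.27 at 4 h.

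The named genes followed this division. Of the 12 largest falls, 11 were already called lower at 0 h, and Septin1 then averaged 13.0 ± 2.61 FPM in Triple_KO and 45.2 ± 5.06 FPM in WT (SD, n = 4 libraries each). Dnajc3, an endoplasmic reticulum co-chaperone, was the exception, with 8.65 ± 2.13 FPM in Triple_KO and 12.4 ± 6.17 FPM in WT at 0 h. Of the 12 largest rises, 9 were already called higher at 0 h. Dppa3, a factor that protects DNA methylation in the early embryo, averaged 31.0 ± 4.02 FPM in Triple_KO and 4.98 ± 2.84 FPM in WT at 0 h. At 4 h it had 37.4 and 38.5 FPM in Triple_KO, against 2.58 and 2.39 FPM in WT. Its log2 difference was 2.55 ± 0.25 at the start and 3.48 ± 0.37 at 4 h. Rabif, which encodes a Rab chaperone, averaged 14.4 ± 1.22 FPM in Triple_KO and 11.8 ± 1.99 FPM in WT at 0 h, with a log2 difference of 0.28 ± 0.23 (adjusted p = 0.418). Its difference at 4 h was 3.26 ± 0.62.

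The change from 0 h to 4 h was then compared between the genotypes. In Triple_KO, 294 of 9010 genes rose (3.26%) and 797 fell (8.85%) from 0 h to 4 h, and the median gene kept 92.6% of its level relative to the library total. In WT, 320 genes rose (3.55%) and 2570 fell (28.5%), and the median gene kept 77.1%. Under TMM the splits were 583 higher and 567 lower in Triple_KO and 1154 and 1518 in WT, with 99.5% and 95.5% kept. Under median scaling they turned, to 1067 higher and 480 lower in Triple_KO and 2074 and 990 in WT, and the median gene then stood at 109% of its start in Triple_KO and 115% in WT. Tested as a genotype by time term, the early change was more positive in Triple_KO for 228 of 9010 genes (2.53%) and more negative for 2 (0.0222%), with a median difference of 0.238. Under TMM the counts were 80 and 60 with a median of 0.032, and under median scaling 71 and 214. Without Triple_KO replicate A, 39 genes were called, without replicate B 62, and without WT replicates A and B 128 and 166.

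Among the largest positive differences in early change were those of Nod1, Rabif, Dyrk3, Riox1, Rpp25l, Mtmr12, Orai1, Gna15 and Scaf8, from 2.23 to 3.05 with adjusted p of at most 0.0488. Dyrk3 averaged 76.1 ± 13.8 FPM in Triple_KO and 52.7 ± 3.48 FPM in WT at 0 h. Its change from 0 h to 4 h was −1.06 in Triple_KO and −3.99 in WT, a difference of 2.93 ± 0.36 (adjusted p = 9.41e-07). Rpp25l changed by −0.19 in Triple_KO and −2.88 in WT, a difference of 2.69 ± 0.31 (adjusted p = 2.53e-07). Scaf8, an RNA polymerase II binding protein, had 13.2 and 15.1 FPM in Triple_KO at 4 h, against 2.58 and 1.60 FPM in WT, with 24.8 ± 3.90 FPM in Triple_KO and 23.5 ± 3.83 FPM in WT at 0 h. Its difference in early change was 2.23 ± 0.49 (adjusted p = 0.00629). Nod1, an innate immune receptor, had 18 reads in Triple_KO at 4 h and 1 in WT, a ratio of 13.8 (exact 95% interval 2.18 to 574). Orai1, a calcium channel subunit, had 35 reads in Triple_KO and 2 in WT (13.4, 3.44 to 115). Gna15, a G protein subunit, had 17 reads in Triple_KO and 0 in WT, at least 4.34-fold higher. Of these 9, Rpp25l and Dyrk3 kept the call whichever of the 4 replicates was left out. The other 7 lost it without at least 1, with adjusted p of up to 0.229 for Riox1, 0.0647 for Rabif, 0.132 for Mtmr12, 0.210 for Nod1, 0.314 for Orai1, 0.368 for Gna15 and 0.155 for Scaf8, while the lowest of the same fits ranged from 0.0034 for Rabif to 0.126 for Gna15. Under TMM, Gna15 lost it. Of the 10 most positive differences, from which these 9 were taken, DESeq2 on recovered reads called 2. TMM and median scaling called 8 each, and edgeR called all 10.

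Relative to the library total, only Snhg3 and Axin2 were called with a more negative early change in Triple_KO. Under other settings more genes were so called, 60 with TMM, 214 with median scaling, 127 with edgeR and 78 with DESeq2. Snhg3 changed by −1.51 in Triple_KO and −0.55 in WT, a difference of −0.96 ± 0.24 (adjusted p = 0.0187), and the call ended without any 1 of the 4 replicates (adjusted p 0.089 to 0.224). Axin2, a negative regulator and target of Wnt signalling, averaged 10.1 ± 4.08 FPM in Triple_KO and 3.77 ± 2.80 FPM in WT at 0 h and had 2 reads in Triple_KO and 5 in WT at 4 h, a ratio of 0.306 (0.0292 to 1.87). Its difference was −2.37 ± 0.68 (adjusted p = 0.0488), and the call ended under TMM (0.0621) and in 3 of the 4 fits without 1 replicate (0.0383 to 0.371).

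Some transcripts started below WT and were above it at 4 h. By sign alone, relative to the library total, this held for 1666 of 7795 genes (21.4%). With a call at both times it held for 8 genes, among them Ythdf1, Mcl1, Esrrb, Nod1 and Tsc22d1, of which Tsc22d1 was named after its values were seen. Under TMM 5 of the 8 held, with Esrrb lost, and under median scaling 3, which were Ythdf1, Mcl1 and Tsc22d1. The call of Nod1 ended at 4 h without WT replicate B (adjusted p 0.0234 to 0.136 over the 2 fits without 1 replicate in which it was tested) and at 0 h in 3 of 4 such fits (0.0346 to 0.388). At 0 h the call of Ythdf1 ended without Triple_KO replicate A or WT replicate B (0.0183 to 0.0985), and those of Mcl1, Esrrb and Tsc22d1 held in all 4. Mcl1, an anti-apoptotic BCL2 relative with a short-lived transcript (chromosome 3, 95656944 to 95663179), averaged 75.3 ± 5.72 FPM in Triple_KO and 111 ± 10.6 FPM in WT at 0 h. At 4 h it had 58.7 and 41.3 FPM in Triple_KO, against 26.7 and 13.6 FPM in WT. Its log2 difference was −0.55 ± 0.10 at 0 h and 1.32 ± 0.26 at 4 h, and its difference in early change was 1.87 ± 0.27 (adjusted p = 1.69e-05). Tsc22d1, a leucine zipper regulator, averaged 213 ± 8.74 FPM in Triple_KO and 304 ± 18.4 FPM in WT at 0 h and had 96.9 and 110.9 FPM in Triple_KO, against 49.0 and 55.0 FPM in WT, at 4 h. Its difference in early change was 1.49 ± 0.14 (adjusted p = 3.66e-09). Ythdf1 averaged 42.5 ± 3.78 FPM in Triple_KO and 57.2 ± 8.05 FPM in WT at 0 h, and its difference in early change was 1.61 ± 0.30 (adjusted p = 0.000925). Ythdf2 differed by 1.39 ± 0.27 in early change (adjusted p = 0.00207). Without Triple_KO replicate A the 2 reader calls ended, with adjusted p of 0.0071 to 0.0946 for Ythdf1 and 0.0105 to 0.0843 for Ythdf2 over the 4 fits without 1 replicate.

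**Figure D3:**
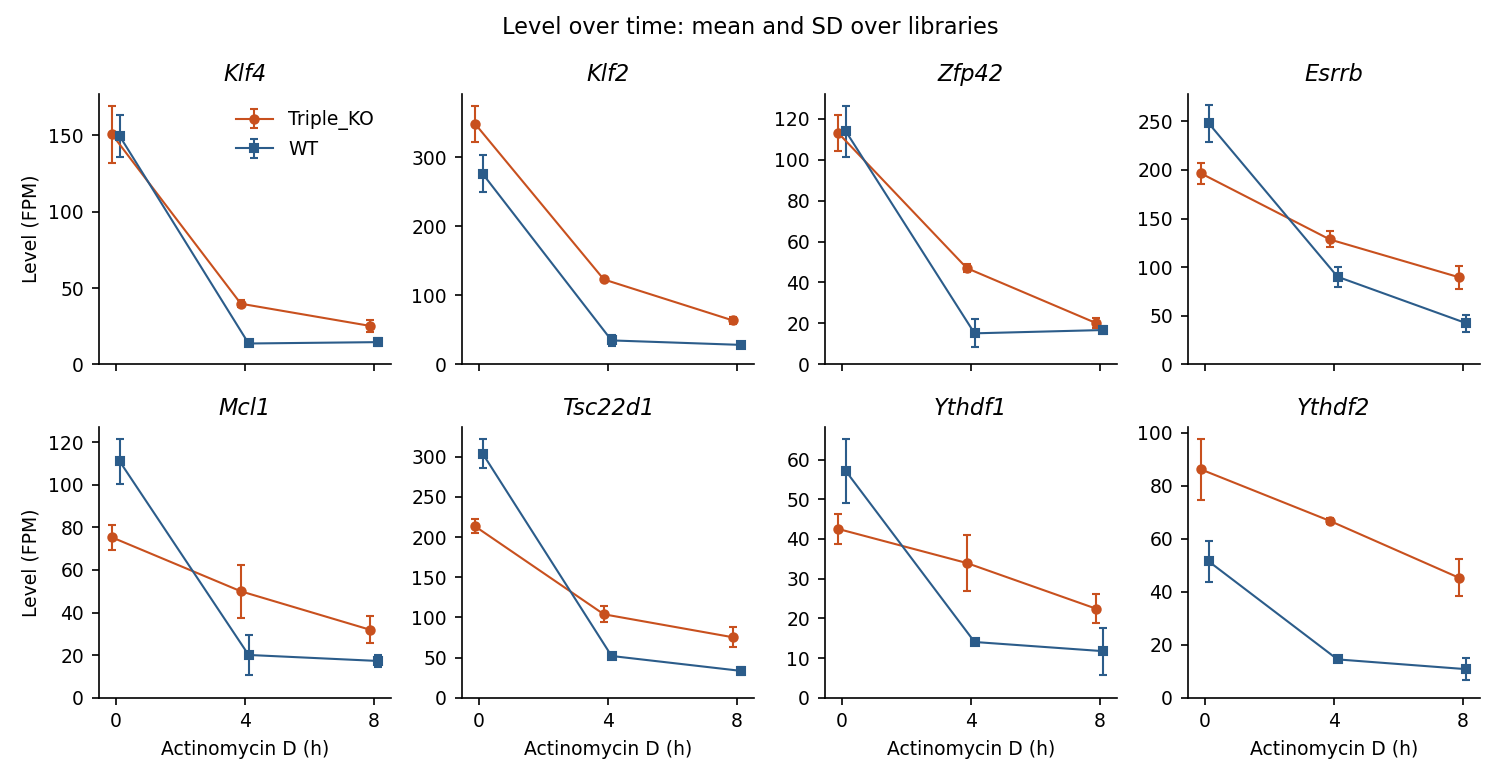
Level in FPM against hours of actinomycin D for 8 transcripts, as the mean and SD over libraries (4, 2 and 4 per genotype at 0, 4 and 8 h); circles are Triple_KO and squares WT. Mcl1, Tsc22d1, Esrrb and Ythdf1 start lower in Triple_KO and lie above WT at 4 h, whereas Klf4 and Zfp42 start at similar levels in Triple_KO and WT (151 against 150 FPM and 113 against 114 FPM).

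Regulators of naive pluripotency, the state of the early epiblast, stood on both sides of WT at both times, and relative to the library total more were called higher than lower at 4 h. Of 21 tested at 4 h, 8 were higher and 3 lower, with a median of 0.50 (6 and 6 under TMM, 6 and 9 under median scaling), while at 0 h 4 of 23 were higher and 9 lower, with a median of −0.13. Beside them, 16.4% of all genes were higher and 2.02% lower at 4 h, and 14.3% and 7.65% at 0 h. The early change was more positive in Triple_KO for 7 of 23, beside 2.53% of all genes. The median was 0.71 beside 0.238 for all genes, and under TMM 5 were more positive and 1 more negative (4 and 2 under median scaling). Klf4, a pluripotency factor (chromosome 4, 55527137 to 55532475), had 38.2 and 41.3 FPM in Triple_KO, against 12.9 and 14.4 FPM in WT (1.48 ± 0.30, adjusted p = 8.68e-05). At 0 h it averaged 151 ± 18.9 FPM in Triple_KO and 150 ± 14.0 FPM in WT, and its difference in early change was 1.47 ± 0.21 (adjusted p = 2.08e-05). Klf2, a related factor, had 125 and 121 FPM in Triple_KO, against 29.3 and 39.9 FPM in WT (1.82 ± 0.21, adjusted p = 4.98e-12), with a difference in early change of 1.48 ± 0.21. Zfp42, the marker also called Rex1, had 45.5 and 48.5 FPM in Triple_KO, against 10.3 and 19.9 FPM in WT (1.64 ± 0.29, adjusted p = 4.26e-06), with a difference in early change of 1.65 ± 0.28. The groups did not overlap for these 3 genes, and their calls at 4 h and in early change held under TMM and without any 1 replicate.

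Other members of the naive list differed in where they started. Esrrb, an orphan nuclear receptor, averaged 197 ± 10.9 FPM in Triple_KO and 248 ± 18.9 FPM in WT at 0 h, and had 134 and 123 FPM in Triple_KO, against 97.2 and 82.9 FPM in WT, at 4 h (0.51 ± 0.14, adjusted p = 0.00611). Its call at 4 h ended under TMM (0.399) and without Triple_KO replicate A or WT replicate B (0.00744 to 0.12 over the 4 such fits), while its difference in early change, 0.84 ± 0.14 (adjusted p = 0.000142), kept its call in all of these. Klf5 started at 82.8 ± 2.47 FPM in Triple_KO and 197 ± 1.57 FPM in WT and had 49.9 and 48.5 FPM in Triple_KO, against 55.1 and 73.4 FPM in WT, at 4 h. Its difference at 4 h of −0.36 ± 0.19 did not pass the test (adjusted p = 0.193), and its difference in early change of 0.88 ± 0.19 did (adjusted p = 0.00608), but not under TMM. Tbx3 had 38.2 and 29.5 FPM in Triple_KO and 20.7 and 22.3 FPM in WT (0.62 ± 0.27, adjusted p = 0.099), with a difference in early change of 1.06 ± 0.22 (adjusted p = 0.00378). Without 1 replicate, the early calls of Klf5 (adjusted p 0.00675 to 0.136) and Tbx3 (0.0137 to 0.202) ended in 3 and 1 of the 4 fits. Fbxo15, an F-box protein of pluripotent cells, was higher by 1.28 ± 0.11 at 0 h and by 2.20 ± 0.22 at 4 h. Rex2 was higher by 1.02 ± 0.17 at 0 h and by 1.57 ± 0.39 at 4 h, with adjusted p of 0.000472 to 0.119 at 4 h without 1 replicate, the highest without WT replicate A. Dppa5a, an abundant stem cell RNA-binding protein, was lower by −0.35 ± 0.04 at 0 h and by −0.50 ± 0.06 at 4 h.

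Core pluripotency factors and cofactors gave 4 higher and 3 lower of 18 tested at 4 h, with a median of 0.43, beside 16.4% higher, 2.02% lower and a median of 0.304 over all genes. Sall4, a zinc finger partner of OCT4, had 147 and 158 FPM in Triple_KO, against 69.7 and 73.4 FPM in WT (1.08 ± 0.15, adjusted p = 8.98e-09), after a difference of 0.17 ± 0.08 at 0 h. Its difference in early change was 0.91 ± 0.15 (adjusted p = 0.00012). L1td1, an RNA-binding protein of pluripotent cells, had 249 and 276 FPM in Triple_KO, against 162 and 188 FPM in WT (0.59 ± 0.11, adjusted p = 1.26e-05), and lost its call at 4 h under TMM (0.0705). Both genes kept the call in early change without any 1 replicate and under TMM. Pou5f1, which encodes OCT4, had 915 and 850 FPM in Triple_KO, against 1091 and 990 FPM in WT (−0.24 ± 0.06, adjusted p = 0.00197), and was lower by −0.26 ± 0.04 at 0 h. Tdgf1, a NODAL co-receptor, was lower by −0.52 ± 0.05 at 0 h and by −0.44 ± 0.09 at 4 h, and Trim28, a corepressor, by −0.24 ± 0.04 and −0.25 ± 0.06. Without 1 replicate the adjusted p at 4 h was 0.00184 to 0.13 for Pou5f1, over 0.05 without Triple_KO replicate B or WT replicate A, and 0.0155 to 0.0623 for Trim28, over 0.05 without Triple_KO replicate B. Under TMM the core list had 1 higher and 4 lower.

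Transcripts known from general knowledge to carry m6A in stem cells were called in both directions at the start. Among those called at 4 h most were higher, as were 89.0% of the calls over all genes. Of 35 tested at 0 h, 8 were higher and 10 lower (median −0.01), and of 27 tested at 4 h, 10 were higher and 1 lower (median 0.69, or 8 and 4 under TMM). Over all genes 14.3% were higher and 7.65% lower at 0 h, and 16.4% and 2.02% at 4 h. In early change 8 of 35 were called and all 8 were more positive in Triple_KO (median 0.87), 7 of them also under TMM. That direction held for 228 of 230 calls over all genes, and 2.53% of all genes were so called. The 8 were Klf2, Klf4, Klf5, Esrrb, Zfp42, Tbx3, Sall4 and Mcl1, most of which also stand in the pluripotency lists. Mycn, a MYC relative, had 17.6 and 17.3 FPM in Triple_KO, against 2.58 and 4.79 FPM in WT (2.02 ± 0.50, adjusted p = 0.00162), after 57.8 ± 9.84 FPM in Triple_KO and 31.9 ± 5.60 FPM in WT at 0 h. Short-lived regulators, some of which also stand in the m6A-marked list and the p53 list below, were mostly higher among those called at 4 h. They gave 11 higher and 0 lower of 31 at 4 h (median 0.71, or 7 and 1 under TMM), against 13 higher and 9 lower of 45 at 0 h (median 0.19). Fewer of them passed the filter on low values at 4 h, so these counts are not of the same genes. In early change 3 of 46 were more positive and 0 more negative (median 0.56), beside 2.53% more positive of all genes. Btg2, an antiproliferative adaptor of the CCR4-NOT deadenylase, had 11.7 and 13.4 FPM in Triple_KO, against 2.58 and 0.798 FPM in WT (2.42 ± 0.56, adjusted p = 0.000592). Its difference in early change of 2.19 ± 0.48 (adjusted p = 0.0069) lost the call in 3 of the 4 fits without 1 replicate (0.0111 to 0.126). Jund, an AP-1 subunit, was higher by 0.69 ± 0.12 at 0 h and by 1.42 ± 0.27 at 4 h.

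The LIF pathway, which these cells depend on, had the highest list median of those with at least 10 genes tested at 4 h. Shorter lists stood higher, with medians of 1.27 for trophectoderm markers (6 tested) and 1.10 for germline genes (5 tested). Of 12 LIF pathway genes, 5 were higher and 0 lower (median 0.88, or 3 and 0 under TMM), against 2 higher and 5 lower of 14 at 0 h (median −0.13), and 3 of 14 had a more positive early change. The shares over all genes were 16.4% higher and 2.02% lower at 4 h and 2.53% more positive in early change. Klf4, described above, was called in both, Il6st, a subunit of the LIF receptor complex, at 4 h, and Pim3, a kinase, in early change, and the last 2 were named after their values were seen.

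Among targets of p53, a stress-activated transcription factor, 10 of 25 were higher and 0 lower at 0 h (median 0.28), beside 14.3% higher of all genes. At 4 h 9 of 25 were higher and 0 lower (median 0.54), beside 16.4%, with values down to −0.43 and with 6 higher and 1 lower under TMM. Phlda3, an inhibitor of AKT signalling (chromosome 1, 135766085 to 135769134), had 118 and 118 FPM in Triple_KO, against 34.4 and 36.7 FPM in WT (1.71 ± 0.20, adjusted p = 2.53e-11). It had averaged 204 ± 8.29 FPM in Triple_KO and 155 ± 11.4 FPM in WT at 0 h, and its difference in early change was 1.31 ± 0.17 (adjusted p = 2.26e-06). Mdm2, the ubiquitin ligase of p53, had 82.9 and 93.1 FPM in Triple_KO, against 31.8 and 33.5 FPM in WT (1.40 ± 0.22, adjusted p = 4.72e-07), after a difference of 0.64 ± 0.10 at 0 h. Trp53inp1 had 71.2 and 70.8 FPM in Triple_KO, against 20.7 and 32.7 FPM in WT (1.41 ± 0.25, adjusted p = 4.91e-06). Of these 3, Phlda3 alone was called in early change, and Mdm2 (adjusted p = 0.0594) and Trp53inp1 (0.0719) were not.

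**Figure D4:**
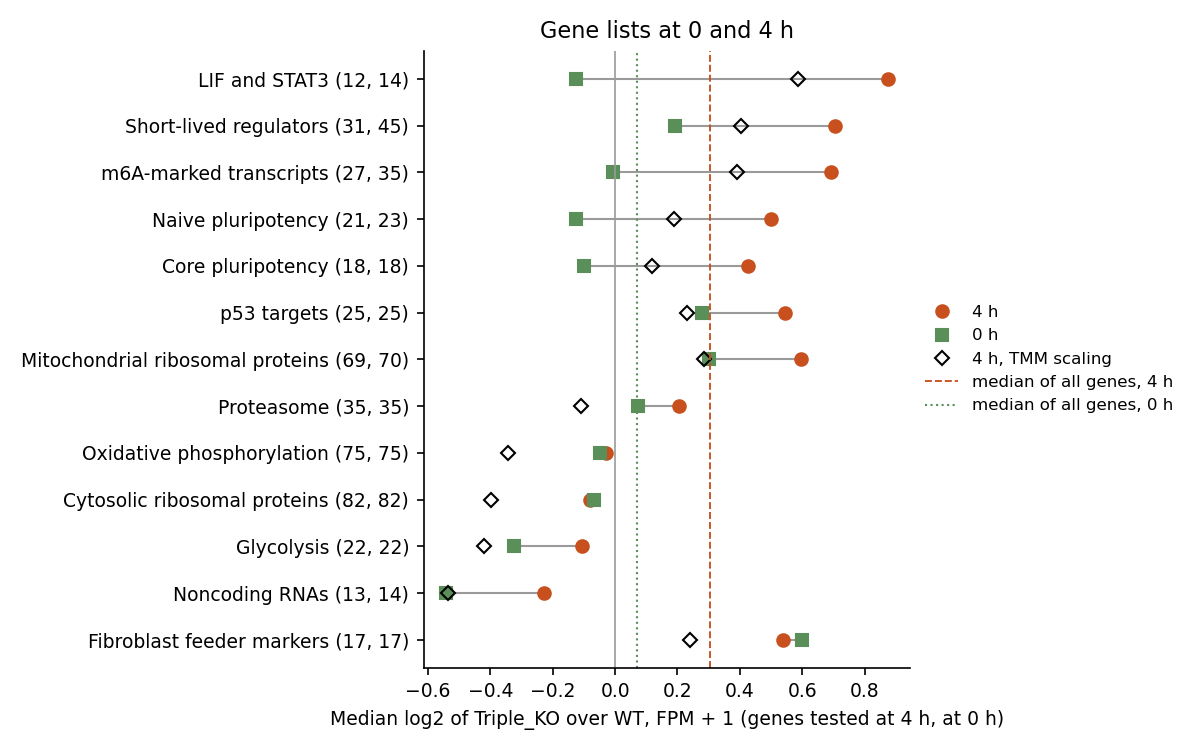
Median log2 of Triple_KO over WT (FPM + 1) for 13 gene lists at 4 h (circles) and at 0 h (squares), with the 4 h median under TMM (open diamonds), and the medians of all genes at 4 h (dashed, 0.304) and 0 h (dotted, 0.071); the numbers are genes tested at 4 h and at 0 h. Naive pluripotency, LIF and m6A-marked lists lie below 0 at 0 h and above the median of all genes at 4 h, and cytosolic ribosomal proteins and oxidative phosphorylation stay near 0.

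Subunits of the mitochondrial ribosome were higher as a group, and those of the cytosolic ribosome were not. Of 69 mitochondrial ribosomal protein genes, 37 were higher and 0 lower at 4 h (median 0.60), with 25 and 1 under TMM, against 29 and 0 of 70 at 0 h (median 0.30), and 11 of 70 had a more positive early change (3 under TMM). Of all genes, 16.4% were higher at 4 h, 14.3% at 0 h and 2.53% more positive in early change. Mrpl12 (chromosome 11, 120484637 to 120488754) had 343 and 340 FPM in Triple_KO, against 140 and 137 FPM in WT (1.29 ± 0.11, adjusted p = 1.91e-17). It started at 318 ± 32.4 FPM in Triple_KO and 207 ± 9.36 FPM in WT. Its difference in early change was 0.68 ± 0.12 (adjusted p = 0.000612), with 0.00306 to 0.0911 without 1 replicate, the highest without Triple_KO replicate A. Mrpl43 had 85.9 and 99.8 FPM in Triple_KO, against 17.2 and 18.3 FPM in WT (2.32 ± 0.26, adjusted p = 5.58e-12), after a difference of 1.02 ± 0.11 at 0 h. Mrpl51 and Mrps7 were higher by 1.40 ± 0.17 and 1.84 ± 0.23 at 4 h and by 0.70 ± 0.10 and 0.64 ± 0.12 at 0 h.

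For the cytosolic ribosome, 6 of 82 genes were higher and 16 lower at 4 h (median −0.08), with 0 called in early change by limma (0 higher and 15 lower under TMM). Since the median of all genes was 0.304, the same genes gave 1 higher and 69 lower under TMM. Rpl22l1, a paralog of RPL22, had 118 and 112 FPM in Triple_KO, against 212 and 225 FPM in WT (−0.92 ± 0.11, adjusted p = 1.29e-10), and was lower by −0.96 ± 0.08 at 0 h. Rpl39l, a paralog of RPL39 whose reads may be shared with it, had 57.2 and 52.4 FPM in Triple_KO, against 18.1 and 23.9 FPM in WT (1.35 ± 0.24, adjusted p = 5.76e-06), and was higher by 1.21 ± 0.15 at 0 h. Genes of oxidative phosphorylation gave 7 higher and 4 lower of 75 (median −0.03, 1 and 36 under TMM), with 0 called in early change. The proteasome gave 8 higher and 0 lower of 35 (median 0.21, 1 and 6 under TMM), beside 16.4% higher and 2.02% lower of all genes. Its lid subunit Psmd7 had 238 and 217 FPM in Triple_KO, against 80.9 and 96.5 FPM in WT (1.35 ± 0.14, adjusted p = 7.95e-14), with a difference in early change of 0.93 ± 0.15 (adjusted p = 0.000166; 0.000581 to 0.0564 without 1 replicate, the highest without Triple_KO replicate A).

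Glycolytic genes were mostly lower at the start and split at 4 h. At 0 h 3 of 22 were higher and 13 lower (median −0.33), and at 4 h 5 were higher and 4 lower (median −0.11), or 2 and 11 under TMM. All genes tested gave 14.3% higher and 7.65% lower at 0 h, and 16.4% and 2.02% at 4 h. Pfkl, a phosphofructokinase subunit, had 69.0 and 67.5 FPM in Triple_KO, against 102 and 130 FPM in WT (−0.74 ± 0.15, adjusted p = 8.73e-05), and was lower by −0.68 ± 0.10 at 0 h. Ldhb, a lactate dehydrogenase subunit, had 127 and 115 FPM in Triple_KO, against 55.1 and 58.2 FPM in WT (1.08 ± 0.16, adjusted p = 2.44e-08), and was higher by 1.04 ± 0.10 at 0 h. Their differences in early change were −0.06 ± 0.18 for Pfkl and 0.04 ± 0.18 for Ldhb. In 4 of the 22 glycolytic genes the early change was more positive in Triple_KO, beside 2.53% of all genes. These were Aldoa, Ldha, Slc16a3 and Slc2a1, named after their values were seen. Under TMM this count was 1 higher and 0 lower, and under median scaling 1 and 3. Of 13 noncoding RNAs, 1 was higher (Snhg6) and 3 lower (Malat1, Rpph1 and Snhg3) at 4 h (median −0.23, or 0 and 6 under TMM), and of 14 at 0 h, 1 was higher and 9 lower (median −0.54). Malat1, a nuclear RNA that persists under actinomycin D, had 62.4 and 65.2 FPM in Triple_KO, against 129 and 151 FPM in WT (−1.12 ± 0.15, adjusted p = 2.32e-09). It had averaged 23.5 ± 1.25 FPM in Triple_KO and 30.5 ± 8.64 FPM in WT at 0 h. Rpph1, the RNA of RNase P, was lower by −1.66 ± 0.22 at 0 h and by −1.80 ± 0.33 at 4 h.

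Of 11 m6A writers and erasers, 4 were higher (Virma, Rbm15b, Wtap and Mettl16) and 0 lower at 4 h, with 2 and 0 under TMM and 16.4% of all genes called higher, and 0 were called in early change. Virma, a scaffold of the writer complex, had 20.5 and 21.2 FPM in Triple_KO, against 8.60 and 3.19 FPM in WT (1.79 ± 0.45, adjusted p = 0.00169). Rbm15b, which recruits the complex to RNA, had 30.8 and 26.8 FPM in Triple_KO, against 9.47 and 8.77 FPM in WT (1.56 ± 0.41, adjusted p = 0.00308), after a difference of 0.87 ± 0.19 at 0 h. Without 1 replicate the adjusted p was 0.000839 to 0.116 for Virma, the highest without WT replicate B, and 0.0195 to 0.0636 for Rbm15b, the highest without Triple_KO replicate A. Among 9 readers, Ythdf1 and Ythdf2 were higher and Hnrnpa2b1, a nuclear RNA-binding protein, was lower, with 217 and 217 FPM in Triple_KO, against 317 and 325 FPM in WT (−0.56 ± 0.10, adjusted p = 5.88e-06). Hnrnpa2b1 was lower by −0.54 ± 0.06 at 0 h. Of 14 deadenylation genes, 1 was higher (Btg2) and 0 lower, and of 19 genes of decapping and nonsense-mediated decay, 1 was higher (Smg5) and 0 lower, or 0 and 3 under TMM.

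Markers of other cell types also differed between the genotypes, and their part in the results was not tested. The 10 stem cell markers summed to 2118 to 2219 FPM in Triple_KO and 2509 to 2649 FPM in WT at 4 h, with none at 0, and of 9 tested 4 were called higher (Esrrb, Fgf4, Klf4 and Zfp42) and 3 lower (Dppa5a, Pou5f1 and Tdgf1). The 9 fibroblast markers summed to 262.7 to 297.2 FPM in Triple_KO, with Lum at 0, and to 149.7 to 168.3 FPM in WT, with Dcn at 0. At 0 h these sums were 196.5 to 233.2 FPM in Triple_KO and 110.1 to 120.3 FPM in WT. Acta2 made up most of the sums at 4 h, with means of 186 FPM in Triple_KO and 112 FPM in WT. Col3a1 (1.2 and 2.39 FPM) and Lum (0 and 0.399 FPM) were lower in Triple_KO. Col1a1, a collagen chain, had 38.9 and 49.6 FPM in Triple_KO, against 16.3 and 14.4 FPM in WT (1.46 ± 0.30, adjusted p = 7.44e-05). Acta2 was higher by 0.72 ± 0.14 and Vim by 0.78 ± 0.16 at 4 h, and none of 17 fibroblast genes tested was called in early change. The 6 trophectoderm markers summed to 18.34 to 21.19 FPM in Triple_KO and 4.785 to 8.605 FPM in WT, with Elf5 at 0 in both and Hand1 at 0 in WT. Krt7 had the highest mean of them, 10.2 FPM in Triple_KO and 2.95 FPM in WT. Krt18, a keratin of simple epithelia, had 120 and 110 FPM in Triple_KO, against 34.4 and 28.7 FPM in WT (1.84 ± 0.19, adjusted p = 3.37e-13), and was higher by 1.53 ± 0.13 at 0 h. Krt8, its partner keratin, was higher by 0.95 ± 0.15 at 4 h. Tfap2c was higher by 2.39 ± 0.23 at 0 h and by 2.07 ± 0.51 at 4 h, where its adjusted p was 0.00109 to 0.0693 without 1 replicate, the highest without WT replicate A. A longer trophectoderm list was called in both directions. It gave 4 higher and 1 lower of 6 tested at 4 h (median 1.27, values down to −0.53, or 3 and 1 under TMM). At 0 h it gave 5 higher and 1 lower of 9 (median 0.93), beside 14.3% higher and 7.65% lower of all genes. The 6 endoderm markers summed to 1.468 to 5.018 FPM in Triple_KO, with Gata6, Sox17, Foxa2 and Sox7 at 0, and to 0.7976 to 1.721 FPM in WT, with these and Gata4 at 0. The longer endoderm list, which holds keratins and basement membrane genes, had a median of −0.29 at 4 h with 2 of 7 higher (Krt8 and Krt18) and 1 lower (Lama1), or 2 and 4 under TMM, and at 0 h a median of −0.36 with 2 higher and 4 lower. The 6 neuroectoderm markers summed to 44.76 to 47.95 FPM in Triple_KO, with Pax6 at 0, and to 23.23 to 27.12 FPM in WT, with Sox1, Neurog2 and Zic1 at 0. These sums were almost all Tubb3, with means of 42.5 FPM in Triple_KO and 24.4 FPM in WT. The next highest in Triple_KO was Map2 (1.57 and 0.399 FPM), and Pax6 was the other way (0.399 FPM in WT). The 6 mesoderm markers summed to at most 1.468 FPM in Triple_KO and were all at 0 in WT. Of 16 imprinted genes 5 were higher (Igf2, Igf2r, Peg10, Phlda2 and Cdkn1c) and 0 lower, or 3 and 2 under TMM. Beside the list counts of this paragraph, 16.4% of all genes were called higher and 2.02% lower at 4 h. Igf2, a fetal growth factor, had 38.9 and 43.5 FPM in Triple_KO, against 15.5 and 6.38 FPM in WT, with 33.8 ± 2.11 FPM in Triple_KO and 6.22 ± 1.87 FPM in WT at 0 h.

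Among the genes tested at 4 h, the difference was larger for transcripts that WT loses fast. Genes were placed in 5 bins of equal size by their change in WT between 0 h and 8 h, which uses no library of 4 h. From the fastest to the slowest loss, the median log2 difference between Triple_KO and WT at 4 h was 0.70, 0.48, 0.28, 0.18 and 0.08, and the share called higher was 26.6%, 20%, 14.7%, 12.4% and 9.28%. Under TMM the medians were 0.41, 0.19, −0.02, −0.13 and −0.23, so that the order held and the sign of the 3 slower bins did not. Across 7868 genes the Spearman rank correlation between the difference at 4 h and the change in WT was −0.326, a description across genes that share libraries and are not independent. The median difference also varied with the starting level, from 0.53 in the bin with the lowest level at 0 h in WT (median 5.71 FPM) to 0.11 in the highest (median 105 FPM), or 0.27 and −0.21 under TMM. Of the 8002 genes tested, 541 passed the filter on low values only through Triple_KO, which favoured higher values there. How far this shaped these bins, or the structure groups below, was not tested.

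**Figure D5:**
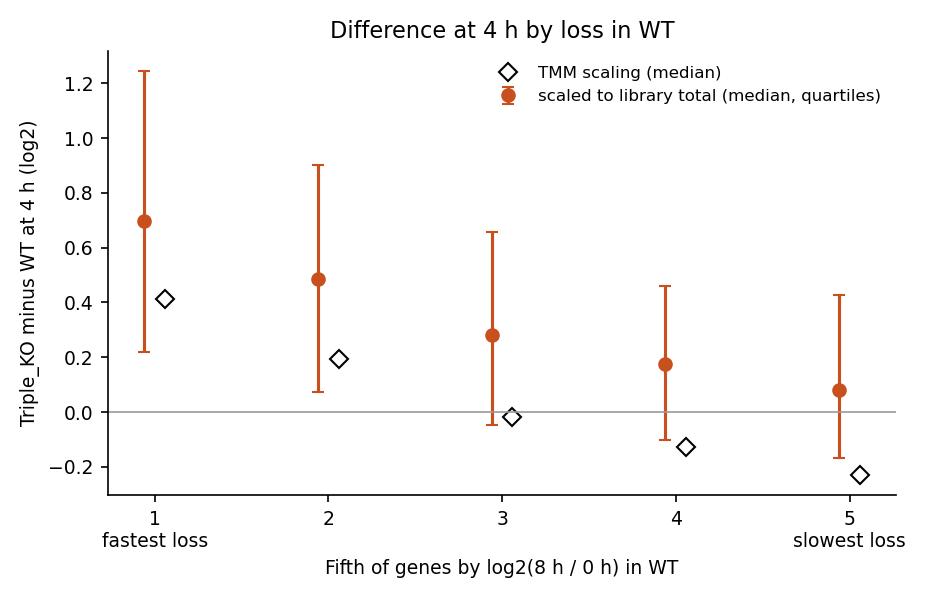
Median log2 difference of Triple_KO minus WT at 4 h for genes in 5 bins by their change in WT between 0 h and 8 h (circles, bars are quartiles over genes), with the medians under TMM (open diamonds). The medians decline from 0.70 in the bin with the fastest loss to 0.08 in that with the slowest.

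Gene structure, taken from GENCODE M21 for 95.5% of the genes tested, separated the genes in a similar way. The m6A mark is known to be frequent in long internal exons and near stop codons and to be kept away from exon junctions. In 1328 genes whose longest internal exon reached 400 nt the median difference at 4 h was 0.53, beside 0.27 in the other 6317, and 19.7% were called higher, beside 16.1%. In the 1529 genes with the lowest density of exon junctions the median was 0.68, beside 0.26 in the other 6116, and 27.5% were called higher, beside 14.1%. Their early change was more positive in Triple_KO in 6.74%, beside 1.75%. For the genes with a long internal exon these shares were 3.24% and 2.64%. Under TMM the medians at 4 h were 0.39 and −0.04 for junctions and 0.24 and −0.03 for long exons. The 1529 genes with the longest 3′ UTR had a median of 0.38, beside 0.30, and 14.8% called higher, beside 17.2%. In early change 2.42% of them were more positive, beside 2.83%. The groups also differed in their loss in WT from 0 h to 4 h. Its median was −0.664 beside −0.246 for long exons, −0.674 beside −0.247 for junctions and −0.47 beside −0.271 for 3′ UTRs. Structure and the rate of loss in WT were not separated. Medians by chromosome lay within −0.107 to 0.121 of that of all genes.

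Against the mean of the 3 single knockouts at 4 h, which uses no WT library, 1586 of 8002 genes were higher in Triple_KO (19.8%) and 181 lower (2.26%), with a median of 0.317. The direction turned to 514 higher and 790 lower under TMM and 403 and 1051 under median scaling. Each single knockout had fewer calls against WT at 4 h, with 29 higher and 15 lower in Ythdf1_KO (0.362% and 0.187%), 128 and 79 in Ythdf2_KO (1.6% and 0.987%) and 53 and 75 in Ythdf3_KO (0.662% and 0.937%). The 3 comparisons share the WT libraries with the triple knockout. Of the 12 largest rises, 10 were also called against the single knockouts, and 11 had both Triple_KO libraries above all 6 single-knockout libraries. Of the 12 largest falls, 11 were called and 10 lay below all 6. Both sets were picked by their values in the same Triple_KO libraries. This choice favoured such counts, which are therefore no separate support. How many of all genes lay above or below all 6 was not counted. Klf4, Klf2 and Zfp42 exceeded the single knockouts by 1.10, 1.50 and 1.03 on the log2 scale (adjusted p = 0.000366, 2.31e-12 and 0.00045). Bhmt and Dppa3 exceeded them by 2.78 and 1.31.

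At 8 h, in libraries not used for 4 h, 2359 of 7033 genes were higher in Triple_KO (33.5%) and 120 lower (1.71%), with a median of 0.439. The split was 831 higher and 640 lower under TMM, and it turned to 615 and 1019 under median scaling and 361 and 494 with DESeq2. Of 1239 genes called higher at 4 h and tested at both times, 1018 (82.2%) were also called higher at 8 h, which is 43.3% of those called at 8 h. Of 159 called lower at 4 h, 70 (44.0%) were called lower at 8 h and 4 higher. Differences of single genes at 8 h were either smaller or larger than at 4 h. For Klf4 and Zfp42 the log2 difference was 0.76 and 0.26 at 8 h (adjusted p = 0.0336 and 0.485), and for Klf2 it was 1.15. For Esrrb, Sall4 and Mrpl12 it was 1.08, 1.44 and 1.79. Mitochondrial ribosomal protein genes gave 50 higher and 0 lower of 68 at 8 h.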

How the data were processed

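The deposited table lists 22338 RefSeq transcripts in FPM, the same unit as RPM, which the authors scaled to each library's total reads with no correction for length. CASAVA 1.8.2, Bowtie2 and the build mm10 were used, per the submitters' processing notes. How reads with several matches were treated, whether strand was used and which filter was applied are not stated in the labels. Low values were whole multiples of 1 read, and 100% of them came out whole within 0.1 read in every library. The count tests left out 1 of the 4 WT libraries of 8 h. Over the 50 libraries the totals were 796921 to 2341410 reads.

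Transcripts were named through RefSeq (GRCm38.p6) for 21725 and GENCODE M21 for 124, and 489 had no name. After 2169 repeated rows were dropped and the transcripts of 652 genes were summed, 19455 genes remained, of which 2151 share an identical row with another gene and were not named.

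Values were tested as log2(FPM + 1) with limma 3.58 in R 4.3 (trended variance, Benjamini-Hochberg adjustment over all genes tested, threshold 0.05). Tested genes had at least 5 FPM in at least 2 replicate values. Duplicate libraries of 0 h and 8 h were averaged first, so that n was 2 replicates. All genotypes of the times compared entered a fit. The alternatives were TMM and median scaling, edgeR 4.0 and DESeq2 1.42 on recovered reads, other pseudocounts and filters, other sample sets, a weighted fit, a replicate block and each replicate left out. The fit was tested on simulated data. Intervals of read ratios are exact, at the 95% level, and cover counting error only.

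Named genes were the 12 largest rises and falls at 4 h and the 10 most positive and up to 5 most negative differences in early change among called genes whose replicates did not overlap and which reached a mean of 10 FPM, the deleted genes, and up to 4 genes per list by smallest p at 4 h, and some of these are not reported here. The comparison, the members and the lists were chosen with earlier results of these data known.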

Additional observations from a re-analysis of the deposited data

Results flagged for a closer look

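The checks of this section and the next were run on 74 of the genes named above. Aldoa, Ldha, Slc16a3, Slc2a1 and Pim3, also called in early change, were not among them. Tested as a genotype by time term with limma, the change from 0 h to 4 h differed between Triple_KO and WT for 33 of the 74. All 33 are given here as the change in Triple_KO minus that in WT on the log2 scale. Among the readers it was 1.61 for Ythdf1 and 1.39 for Ythdf2. Among the largest rises at 4 h it was 2.76 for Riox1, 2.69 for Rpp25l, 2.93 for Dyrk3, 2.64 for Mtmr12, 2.98 for Rabif, 1.85 for Commd5 and 1.93 for Mrm2. Further genes of the largest positive differences were Nod1 with 3.05, Orai1 with 2.44, Gna15 with 2.35 and Scaf8 with 2.23. Snhg3 with −0.96 and Axin2 with −2.37 were negative. Among the genes that started lower, it was 0.84 for Esrrb, 1.87 for Mcl1 and 1.49 for Tsc22d1. In the other pluripotency genes it was 1.47 for Klf4, 1.48 for Klf2, 1.65 for Zfp42, 0.92 for Fbxo15, 0.88 for Klf5, 1.06 for Tbx3, 0.91 for Sall4 and 0.69 for L1td1. In the short-lived and p53 lists it was 2.19 for Btg2 and 1.31 for Phlda3. In the mitochondrial ribosome and the proteasome it was 0.68 for Mrpl12, 1.30 for Mrpl43, 0.71 for Mrpl51, 1.21 for Mrps7 and 0.93 for Psmd7. Under TMM, Gna15, Axin2, Fbxo15, Klf5, Mrpl51 and Mrps7 were no longer called.

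In 10 of 296 groups of 4 libraries of 1 gene (3.38%), 1 library stood apart from the other 3 by Dixon's criterion, which chance alone meets in about 1 of 20 groups. At 0 h, Bhmt had 23.8 FPM in 1 Triple_KO library and 14.4 to 15.9 FPM in the others, Xaf1 2.77 FPM against 5.78 to 6.13 FPM, and Rex2 29.2 FPM against 35.6 to 36.5 FPM. In WT at 0 h, Myl4 had 5.07 FPM in 1 library and 14.7 to 16.1 FPM in the others, Mrpl12 221 FPM against 202 to 203 FPM, Ldhb 54.7 FPM against 48.9 to 49.3 FPM, and Tfap2c 12.3 FPM against 5.07 to 5.89 FPM. In WT at 8 h, Mrm2 had 6.02 FPM in 1 library and 1.69 to 2.28 FPM in the others, Trim28 634 FPM against 649 to 650 FPM, and Rpl22l1 185 FPM against 153 to 157 FPM.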

How the results depend on the processing

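The number of genes called at 4 h (1474) was 970 with no filter on low values, 612 with DESeq2 and 2465 in one fit of all times, and 720 to 1090 when each replicate was left out in turn. At 0 h (1906) it was 852 with DESeq2, 557 in one fit of all times and 1090 to 1510 without 1 replicate. For the difference in early change (230) it was 140 with TMM, 148 with DESeq2, 121 with no filter, 141 in one fit of all times and 39 to 166 without 1 replicate. The early change in Triple_KO (1091) gave 1895 with edgeR and 275 to 373 without 1 replicate, and that in WT (2890) gave 1754 to 1769. Against the single knockouts (1767) it was 699 with DESeq2, 2851 in one fit of all times and 629 to 768 without 1 replicate, and at 8 h (2479) 855, 1471, 1611 and 1634 with DESeq2, TMM, edgeR and median scaling (DESeq2 and edgeR with 1 WT library fewer) and 1375 to 1835 without 1 replicate. Leaving out a replicate or the filter changes the number of samples or of genes tested, and for the other settings the cause was not tested. The difference in early change of Pou5f1 was 0.02 and not called, but was called at −0.224 with edgeR and −0.316 with median scaling. Of 69 named genes called at 4 h, 64 could be tested without each of the 4 replicates and 53 kept the call in all 4 fits, as did 54 of 58 at 0 h and 11 of 33 in early change. With the replicate block the count at 4 h was 1489, at 0 h 1914 and in early change 234. Deviations of same-lettered replicates correlated at −0.014 to 0.039. Replicates at 4 h differed by little more than counting error (chi-square per degree of freedom 1.30 to 1.37), which would hide a link. Whether the letters mark a shared culture or batch is therefore not decided. Depth limits genes with few WT reads at 4 h, where 3 reads over both libraries correspond to 1.24 FPM.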
